A study of Mus musculus with 4 samples.

Results

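Mature dendritic cells (DCs) positive for Fscn1 were 199 of the 21249 cells that passed the quality limits, out of 26654 cell barcodes in all. They were chosen by raw UMI counts (unique molecular identifiers, each 1 captured mRNA molecule). A member held at least 1 UMI of Fscn1, which encodes the actin-bundling protein fascin, at least 1 of Ccr7, the receptor for the lymph node chemokines, and at least 1 of Ccl22, Apol7c or Zmynd15. Members also held 0 UMIs of the T cell genes Cd3e and Cd3d, the B cell gene Cd79a and the macrophage gene C1qa. These 9 genes chose the cells, so their values are given as a description with no test.

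All cells came from the stromal vascular fraction of inguinal white fat of male ChATBAC-eGFP mice, in which a bacterial artificial chromosome with the regulatory sequence of Chat drives eGFP. Live singlets positive for ChAT-eGFP were sorted, so the cells are those with reporter signal and not all DCs of the fat. Mice aged 5 weeks spent 3 weeks at 30 °C, where a mouse need not make extra heat, and were 8 weeks old at harvest. They then stayed at 30 °C for 4 h or were moved to 4 °C for 4 h, the latter after 24 h at room temperature, so that step and the cold cannot be told apart. Each temperature has 2 libraries, each of 4 pooled mice, and p-values measure the spread between pools. The 30 °C libraries held 43 and 29 members with 541168 and 326518 UMIs, and the 4 °C libraries held 78 and 49 members with 1056474 and 688149 UMIs.

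DCs take up antigen in a tissue, mature on activation, gain CCR7 and travel through lymph vessels to the lymph node, where they present peptides to T cells. Maturation brings MHC molecules and costimulatory proteins to the surface, remodels actin and turns on a conserved set of genes that includes Fscn1, Ccr7, Socs2 and Il4i1. This state can be reached from both classes of conventional DC, cDC1 and cDC2, and the genes that mark the class of origin fade as it is reached.

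The rule stepped down from 614 cells with Fscn1 to 388 that also held Ccr7, 328 with 1 of the further 3 genes and 199 after the 4 genes of other cell types were required at 0. Of the members, 191 held 3 or more Fscn1 UMIs, 5 held 2 and 3 held 1. Just outside, 2 cells met every other condition with 0 Fscn1 UMIs. They had a median of 2756.5 UMIs and 14 of 41 programme genes outside the rule, against 20 in members with 1 Fscn1 UMI and 30 in members with 3 or more. Those members had median depths of 1574 and 13358 UMIs. Programme UMIs per 10000 UMIs were 244 in the cells just outside. They were 368, 211 and 316 in members with 1, 2 and 3 or more Fscn1 UMIs. Fscn1 stood at 1292 and 1485 UMIs per 1000000 UMIs of the members (CPM) in the 30 °C libraries and at 1833 and 1565 in the 4 °C libraries. Ccr7 stood at 1515 and 2119 CPM at 30 °C and at 2051 and 1523 at 4 °C, with the temperatures overlapping.

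Ccl22, a chemokine for CCR4-bearing T cells, was at 464 and 429 CPM at 30 °C and at 1430 and 854 at 4 °C. A single cell of 4 °C replicate 1 held 341 of its 1511 Ccl22 UMIs. Apol7c, an apolipoprotein L family gene, was at 676 and 818 CPM at 30 °C and at 1617 and 1421 at 4 °C. Zmynd15 was at 418 and 521 against 428 and 482 CPM. In these sums Ccl22 and Apol7c were higher in both 4 °C libraries than in both 30 °C libraries, while Zmynd15 overlapped.

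Several genes that the rule did not use described the same cells as mature DCs. Cacnb3 had a UMI in 96.5% of members, against 0.134% of macrophages, 0.208% of B cells and 1.09% of T cells. Those classes were chosen in the same libraries by C1qa, by Cd79a and by Cd3e with Cd3d. Relb, the NF-kB subunit needed for DC maturation, was detected in 95.5% of members, Socs2, a suppressor of cytokine signalling, in 95%, and Il4i1, an amino acid oxidase, in 93.5%. The highest shares in the other classes were 26.2% (Relb, B cells), 20.5% (Socs2, T cells) and 16.2% (Il4i1, B cells). Pdcd1lg2 and Cd86 did not set the members apart, at 7.04% against 13.2% of T cells and 44.7% against 56.3% of macrophages. Flt3, the growth factor receptor of DCs, was detected in 79.9% of members, against 0.67% of macrophages and 6.19% of B cells. Median depth was 13308 UMIs in members, 8439.5 in macrophages, 8296 in B cells and 6592 in T cells, so shares of cells with a UMI favour the members.

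Genes that tell DC classes apart gave no single origin. Xcr1, the chemokine receptor of cDC1, had a UMI in 2 of 199 members, and Clec9a, a cDC1 receptor for dead cells, in 3. Cd209a, a cDC2 lectin, and Siglech of plasmacytoid DCs had a UMI in 0 of 199 members, which by counting error allows a share of up to 1.51% of such cells with a UMI and sets no limit on cells that express them. Other genes of plasmacytoid DCs were detected, Bst2 in 76.4% of members, Tcf4 in 57.8%, Ly6d in 13.1% and Ccr9 in 3.02%. Bst2 and Tcf4 were also detected in 76% and 78.7% of macrophages, and Ly6d in 96.2% of B cells. Among other cDC2 genes, Sirpa was detected in 21.1% of members, and Clec10a and Mgl2 in 3.02% each. Batf3, a transcription factor of cDC1 that also rises in other mature DCs, was detected in 88.9%. Irf8, which directs cDC1, was detected in 95 members and Irf4, which directs cDC2, in 83. Both were detected in 41, Irf8 alone in 54, Irf4 alone in 42 and neither in 62. Irf8 was at 40.7 CPM in 30 °C replicate 1 and at 178, 193 and 195 in the other libraries. The Langerhans cell genes Cd207 and Epcam were detected in 2.51% and 15.1% of members, the latter against 19.5% of B cells and 20% of T cells. Of the tested genes of cDC1 (4), of cDC2 (6), of plasmacytoid DCs and Langerhans cells (4) and shared by DCs (10), 0 passed the test of 4 °C against 30 °C described below, with median log2 fold changes of 0.16, 0.49, -0.27 and 0.47.

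RNA of other cell types was present at low levels. The 8 B cell genes outside the rule summed to 578 and 554 CPM at 30 °C and to 364 and 548 at 4 °C, with Igkc, the kappa light chain and a common free RNA, the most abundant. The 8 T cell genes summed to 92.4 and 45.9 against 107 and 97.4 CPM, led by Cd8a, which some DCs express. The 8 macrophage genes summed to 81.3 and 42.9 against 40.7 and 27.6 CPM, led by Apoe. The 4 genes of ILC2s, a helper-like innate lymphocyte, summed to 37 and 3.06 against 0.947 and 2.91 CPM, led by Gata3, with Il13 at 0 UMIs. Of 6 stromal and endothelial genes, Mmrn1, Cldn5 and Prox1 had 0 UMIs, and the sum reached at most 4.73 CPM. The 3 plasma cell genes summed to between 79.9 and 123 CPM, and the 3 genes of granulocytes had 0 UMIs. Scrublet, a doublet caller, marked 3 of the members, 1.51%, against 2.48% of all kept cells. In the classes likewise screened for genes of other types it marked fewer, 0.804% of macrophages, 0.671% of B cells and 0.357% of T cells. No member shared its barcode with a member of another library, and between 10 and 18 barcodes of all cells were shared by any pair of libraries.

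Chat, the gene whose locus drives the reporter and which makes acetylcholine, had a UMI in 62.3% of members, 6.17% of macrophages, 36.4% of B cells and 43.8% of T cells. In members thinned to 6628 UMIs the share was 45.8%. Chat was at 115 and 91.9 CPM at 30 °C and at 115 and 106 at 4 °C, a log2 fold change of 0.06 ± 0.23 (SE), and the temperatures overlapped. Of 6 tested genes of acetylcholine and adrenaline signalling, 0 passed the test in either direction, with a median log2 fold change of 0.05.

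The first question was whether mature DCs took a larger share of the ChAT-eGFP+ cells after cold. Members were 0.829% and 0.538% of kept cells in the 30 °C libraries and 1.46% and 0.917% in the 4 °C libraries. Both 4 °C libraries lay above both 30 °C libraries, but 4 °C replicate 2 exceeded 30 °C replicate 1 by less than the counting error, with 95% Clopper-Pearson intervals of 0.679 to 1.21% and 0.6 to 1.11%. The means were 1.19 ± 0.387% at 4 °C and 0.683 ± 0.205% at 30 °C (SD, n = 2 each), a difference of 0.507 percentage points that did not pass the test (exact permutation test, two-sided, p = 0.333, the smallest that 2 against 2 allows). The difference was 0.233 points without 4 °C replicate 1. Intervals cover counting error only, and a share says nothing of the number of cells in the fat.

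**Figure D1:**
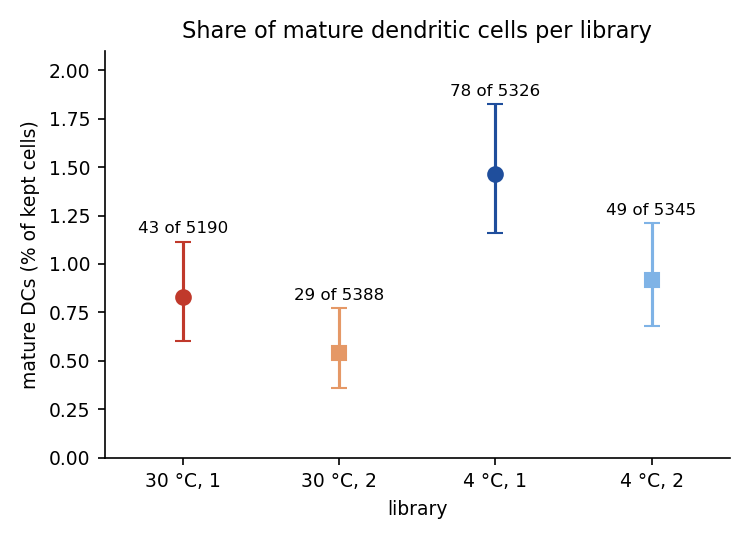
Mature DCs as a percent of kept cells (vertical axis) in each library (horizontal axis), with 95% Clopper-Pearson intervals as bars and the number of members over kept cells above each. The 4 °C libraries stand at 1.46% and 0.917%, the 30 °C libraries at 0.829% and 0.538%, and the intervals of 30 °C replicate 1 and 4 °C replicate 2 overlap.

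UMIs of the members were summed per library, and 5460 genes outside the rule were tested for a difference between 4 °C and 30 °C (edgeR quasi-likelihood test, Benjamini-Hochberg adjusted p under 0.05). Of these, 82 passed (1.5%), 56 of them higher at 4 °C (1.03%) and 26 lower (0.476%). The temperatures did not overlap in 81 of the 82, so such a gap is no further evidence for a called gene below. The median log2 fold change over all tested genes was -0.02. The shares of 1.03% higher and 0.476% lower are the background for the counts of every gene list below. DESeq2 gave 33 calls, all among the 82, and limma-voom gave 96, of which 65 were among the 82. Members thinned to 1 depth gave 27, all among the 82. Leaving out any 1 library changed both the count and which genes were called, and without either replicate 1 many of the 82 were lost.

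The largest rises held an inflammatory cytokine, an enzyme of cholesterol synthesis and several regulators. Il1b (chr2:129364570-129371139, minus strand, mm10), which encodes interleukin-1β, was at 12.9 and 15.3 CPM at 30 °C and at 111 and 95.9 at 4 °C. Both cold libraries stood far above both warm ones, with a log2 fold change of 2.86 ± 0.34 (edgeR adjusted p = 0.000483). The UMIs were held by few cells, 2 and 2 members at 30 °C and 14 and 8 at 4 °C, and a single member held 41 of 117 and another 40 of 66. At 30 °C single members held 6 of 7 and 4 of 5.

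Serpinb1a, an inhibitor of neutrophil proteases, was at 22.2 and 15.3 CPM at 30 °C and at 129 and 157 at 4 °C (log2 fold change 2.82 ± 0.32, edgeR adjusted p = 0.000451). Ptpn21, a protein tyrosine phosphatase, rose by 2.88 ± 0.55 on the log2 scale from 3 and 1 UMIs to 35 and 27. Pvr, the surface ligand of CD226 and TIGIT on T and NK cells, was at 7.39 and 15.3 CPM at 30 °C and at 63.4 and 46.5 at 4 °C. Nfkbiz, an atypical inhibitor of NF-kB that is induced by its activity, was at 18.5 and 24.5 against 111 and 61 CPM. In all 4 the lowest cold library lay above the highest warm one, as the rule for naming genes asked. Ptpn21 was not called by limma-voom (adjusted p = 0.282) and had no adjusted p by DESeq2, and Pvr was called by neither (0.089 and 0.145). Prkx, Loxl3 and Tle3, which encode a protein kinase, a lysyl oxidase and a transcriptional corepressor, rose by 2.45, 2.28 and 2.09 on the log2 scale. None of these 3 was called by DESeq2 (adjusted p = 0.303, 0.346 and 0.232) or by limma-voom (0.266, 0.235 and 0.0796). None passed without 4 °C replicate 1 (adjusted p = 0.104, 0.183 and 0.121), and Loxl3 and Tle3 did not without 30 °C replicate 1 (adjusted p = 0.0673 and 0.0837). The log2 fold change of Tle3 was 1.50 without 30 °C replicate 1 and 2.71 without 30 °C replicate 2. Retnla completed the named rises at 2.06, with 44 of its 50 UMIs in 4 °C replicate 1 held by a single member, and did not pass without that library (adjusted p = 0.0779), by DESeq2 (0.406) or by limma-voom (0.318). Its log2 fold change was 3.77 without 30 °C replicate 1.

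**Figure D2:**
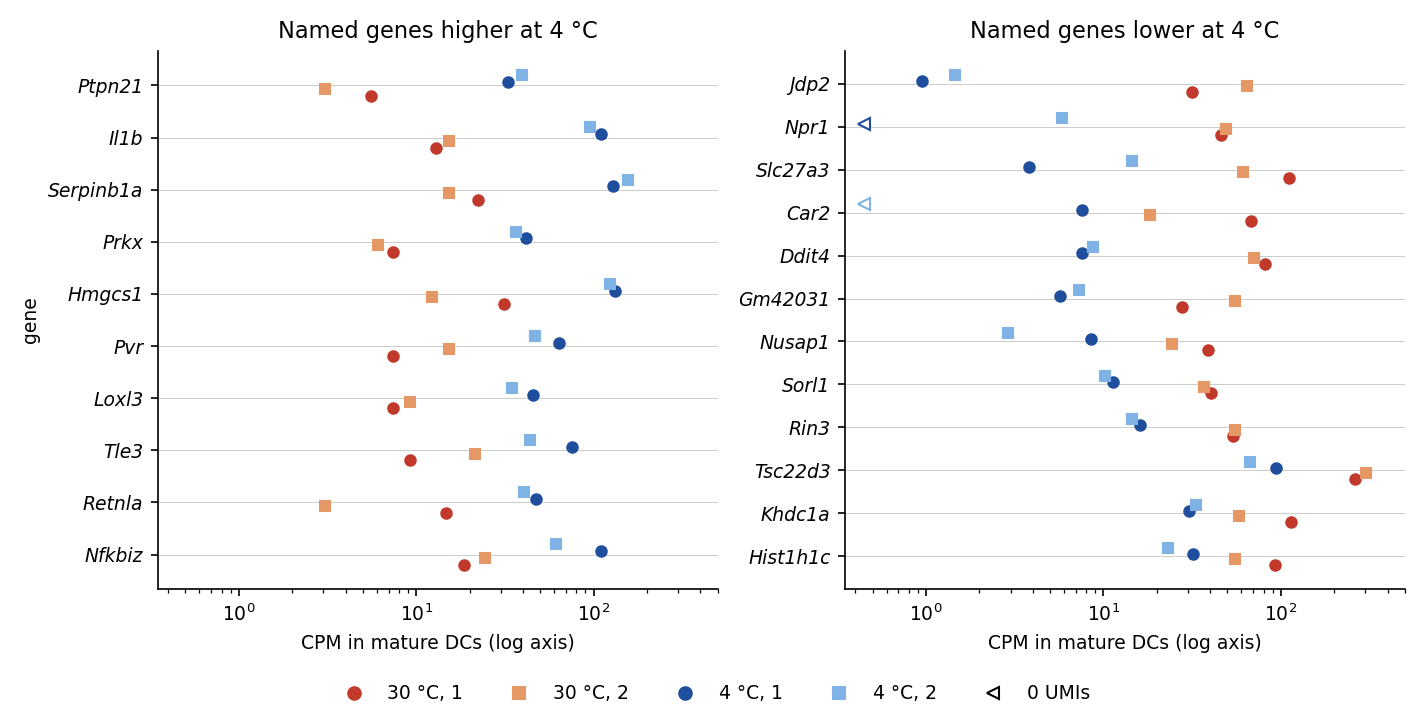
CPM in mature DCs (log axis) for 10 of the 12 largest rises (left) and the 12 largest falls (right) past the threshold. These were ranked among genes with at least 20 UMIs in all and temperatures that did not overlap. Each point is 1 library, with open triangles at the left edge for 0 UMIs. For every gene shown both 4 °C libraries lie on the same side of both 30 °C libraries, as the rule for naming genes asked.

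Cholesterol and lipid handling, a list of synthesis, uptake, export and lipid-binding genes, had the highest median of the lists with 3 or more tested genes. Cells sense sterols at the endoplasmic reticulum: when sterols are scarce, SREBP2 is cut free and switches on the enzymes of the mevalonate pathway. Of 16 tested genes of cholesterol and lipid handling, 6 were higher at 4 °C (against 1.03% of all tested genes) and 0 lower, and the median log2 fold change was 1.12 against -0.02 over all tested genes. The list was chosen with earlier results of these data known.

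Hmgcs1, which makes HMG-CoA from acetyl units, was at 31.4 and 12.3 CPM at 30 °C and at 133 and 124 at 4 °C (log2 fold change 2.39 ± 0.32, edgeR adjusted p = 0.00133). Idi1, which isomerises the isoprenoid unit, was at 42.5 and 45.9 against 205 and 158 CPM (2.03 ± 0.25, adjusted p = 0.000673). In both enzymes every cold library stood clear of every warm library, and the log2 fold change of Hmgcs1 was 3.36 without 30 °C replicate 1. The UMIs of Idi1 were spread over 15 and 10 members at 30 °C and 51 and 28 at 4 °C, and those of Hmgcs1 over 11 and 4 against 45 and 25. Fdps, the next enzyme of the pathway and outside the list, rose by 1.43 ± 0.29 (adjusted p = 0.0233) and was not called by DESeq2 (0.148).

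Genes of the same pathway that did not pass were Srebf2, which encodes SREBP2, at 35.1 and 64.3 against 112 and 100 CPM (log2 fold change 1.15, adjusted p = 0.0645), and Insig1, the sterol-sensing anchor of the SREBP complex, at 9.24 and 18.4 against 40.7 and 34.9 CPM (1.54, adjusted p = 0.106). Sqle, squalene epoxidase, was at 0 and 15.3 against 19.9 and 27.6 CPM. Abcg1, which exports cholesterol, rose by 0.94 ± 0.20 (adjusted p = 0.0296), and Fabp5, a fatty acid binding protein, rose from 1441 and 980 CPM to 2564 and 2713 (1.09 ± 0.15, adjusted p = 0.00149). Apoe, a lipid carrier abundant in macrophages, was at 27.7 and 15.3 against 18.9 and 11.6 CPM, and Plin2, the coat protein of lipid droplets, had a log2 fold change of -0.66 (adjusted p = 0.603). Of the 6 called genes, 5 passed without 30 °C replicate 1, 5 without 4 °C replicate 1, all 6 without either of the others, and 5 by DESeq2.

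The promoters of the called enzymes Hmgcs1 and Idi1, which moved together, are shown for the 250 bases before the RefSeq start site in GRCm38.p6, both on the plus strand of chromosome 13. Capitals mark each match to the sterol regulatory element TCACNCCAC or to the CCAAT box (CCAAT), on either strand, where CCAAT on the other strand reads ATTGG. The Hmgcs1 window is chr13:119690101-119690350 and the Idi1 window is chr13:8885356-8885605.
Hmgcs1: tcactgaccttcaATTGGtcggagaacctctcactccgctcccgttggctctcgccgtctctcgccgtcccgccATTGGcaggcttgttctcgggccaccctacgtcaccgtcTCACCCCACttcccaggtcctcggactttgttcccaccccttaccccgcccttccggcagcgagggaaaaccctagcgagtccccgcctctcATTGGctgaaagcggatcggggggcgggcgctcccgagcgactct
Idi1: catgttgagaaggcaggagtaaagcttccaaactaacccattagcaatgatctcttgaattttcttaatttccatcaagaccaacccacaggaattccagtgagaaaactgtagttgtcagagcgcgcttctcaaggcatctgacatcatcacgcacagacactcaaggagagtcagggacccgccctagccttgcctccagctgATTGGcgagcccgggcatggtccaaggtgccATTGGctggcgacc
Hmgcs1 held 1 match to the sterol element, TCACCCCAC, which begins 137 bases before the start, and 3 CCAAT boxes. Idi1 held 0 matches to these sterol element letters and 2 CCAAT boxes. The sterol element letters occur in 1.05% of 32851 promoter windows of this length and CCAAT in 33.8%. Of the 82 called genes, 56 had a window, and 1 of these held the sterol element. A match is a description of the letters and not a bound site.

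Part of the wider programme of maturation rose after cold. Of 39 tested programme genes outside the rule, 8 were higher at 4 °C (against 1.03% of all tested genes) and 0 lower. Their median log2 fold change was 0.45. Cd40, the receptor for T cell help, was at 48 and 21.4 CPM at 30 °C and at 123 and 113 at 4 °C (1.63 ± 0.30, edgeR adjusted p = 0.0135). Cd83, a maturation marker that steadies MHC class II at the surface, was at 240 and 401 against 737 and 570 CPM (1.04 ± 0.20, adjusted p = 0.0171). Il4i1 was at 364 and 358 against 706 and 584 CPM (0.81), and Socs2 at 432 and 487 against 770 and 702 (0.66). Each of these had both cold libraries above both warm ones, and the log2 fold change of Cd40 was 2.44 without 30 °C replicate 1. Etv3, a transcriptional repressor, Basp1, a membrane-associated protein, and Gadd45b, a stress sensor, rose by 0.77, 0.72 and 0.65, and Fabp5 is the eighth. Of the 8, 5 passed without 30 °C replicate 1, 5 without 4 °C replicate 1 and all 8 without either of the others. DESeq2 called 6, without Socs2 and Gadd45b (adjusted p = 0.124 and 0.135). Because members were selected for cells with such a programme, the list describes these cells and is no separate sign of their state.

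Costimulatory molecules moved in part. Of 14 tested, 3 rose (Cd40, Cd83 and Pvr), against 1.03% of all tested genes, and 0 fell, and the median was 0.15. Cd80 and Cd86, the ligands of CD28, did not pass, Cd80 at 68.4 and 45.9 against 42.6 and 30.5 CPM and Cd86 at 66.5 and 85.8 against 73.8 and 68.3. Cd274, which encodes the checkpoint ligand PD-L1, was at 73.9 and 52.1 against 143 and 98.8 CPM (log2 fold change 0.89, adjusted p = 0.147). Of 22 tested cytokines, receptors and regulatory enzymes, 3 rose (Il1b, Il4i1 and Socs2) and 1 fell, against 1.03% and 0.476% of all tested genes. Without 4 °C replicate 1, 1 of the 3 rises passed, and without 30 °C replicate 1, 2 did. The fall was Il7r, a receptor chain for interleukin-7 and TSLP, at 652 and 524 CPM at 30 °C and at 218 and 279 at 4 °C (-1.29 ± 0.18, adjusted p = 0.0014). Tnf was at 7.39 and 3.06 against 40.7 and 18.9 CPM and did not pass (2.38, adjusted p = 0.0757). The 4 tested chemokines outside the rule gave 0 calls, with a median of -0.36. Ccl5, a chemokine for T cells and other leukocytes, was at 11642 and 20468 CPM at 30 °C and at 10959 and 16058 at 4 °C, overlapping.

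Antigen presentation genes did not pass. Of 11 tested MHC class II genes 0 passed, with a median log2 fold change of -0.01. Cd74, the invariant chain, was at 9927 and 6156 CPM at 30 °C and at 9306 and 7247 at 4 °C, and H2-Aa at 5575 and 3844 against 4951 and 4047, with the temperatures interleaved. Of 17 MHC class I genes 0 passed, although 16 had a positive log2 fold change and the median was 0.22. H2-M2, a class I gene outside the list, rose from 329 and 242 CPM to 726 and 785 (1.35 ± 0.17, adjusted p = 0.00065).

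Signal-induced genes held 4 calls, all rises, in the NF-kB and immediate early lists. Of 22 NF-kB subunits and feedback genes, 1 rose (Nfkbiz), against 1.03% of all tested genes. A positive log2 fold change was found in 19, and the median was 0.34. DESeq2 did not call Nfkbiz (adjusted p = 0.0634). Tnfaip3, the A20 brake on NF-kB, was at 146 and 150 against 328 and 214 CPM and did not pass (0.86, adjusted p = 0.0645). Of 25 immediate early genes, 3 rose (against 1.03% of all tested genes) and 0 fell, 22 had a positive log2 fold change, and the median was 0.40. The 3 rises were Dusp2, a MAP kinase phosphatase, at 83.2 and 79.6 against 248 and 173 CPM (1.35 ± 0.23), the nuclear receptor Nr4a3 (1.14 ± 0.26) and Gadd45b. Without 4 °C replicate 1, and likewise without 30 °C replicate 1, 1 of the 3 passed, and DESeq2 called 1. Of 16 interferon-stimulated genes, Irf1, a transcription factor, alone rose, with a list median of 0.23, at 96.1 and 101 against 211 and 212 CPM (1.08 ± 0.20), and DESeq2 did not call it (adjusted p = 0.089). Of 6 clock genes, with a median of 0.32, the repressor Bhlhe40 rose (0.89 ± 0.20), a call lost without 4 °C replicate 1 (adjusted p = 0.196) and by DESeq2 (0.2).

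Of 26 tested actin and migration genes, 4 rose (against 1.03% of all tested genes) and 0 fell, and the median was 0.23. Actb, cytoplasmic β-actin, was at 9729 and 11139 CPM at 30 °C and at 15258 and 14360 at 4 °C (0.48 ± 0.09). Vim, the intermediate filament protein vimentin, was at 1826 and 1936 against 2879 and 2978 CPM (0.61 ± 0.11). Pfn1, an actin monomer binder, and Myo1g, a myosin of blood cells, rose by 0.56 and 0.77. The steps were small beside those of the cholesterol genes. For Actb the log2 fold change was 0.40 without 30 °C replicate 1 and 0.60 without 30 °C replicate 2. For Pfn1 it was 0.76 and 0.44, and for Vim 0.59 and 0.68. Without 30 °C replicate 1, 2 of the 4 passed, and DESeq2 called 1.

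**Figure D3:**
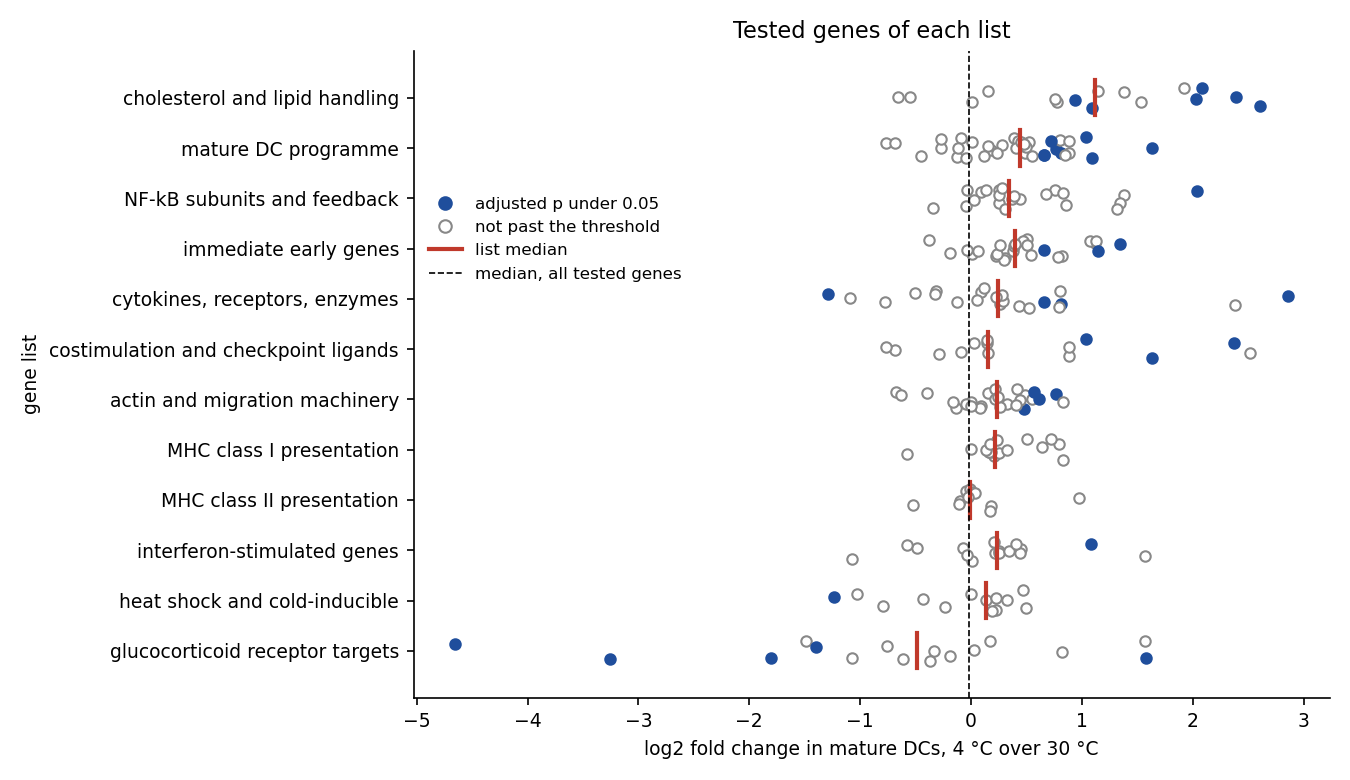
Log2 fold change at 4 °C over 30 °C in mature DCs (horizontal axis) for every tested gene of 12 lists (rows), filled where the adjusted p is under 0.05, with the list median as a red bar and the median of all tested genes, -0.02, as a dashed line. The cholesterol list has the highest median, 1.12, and the glucocorticoid receptor targets the lowest, -0.49.

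Falls were ranked among genes with at least 20 UMIs in all and temperatures that did not overlap. The largest of these were in a transcriptional repressor, a receptor and a lipid transport gene. Sult1a1 and S100a3, outside these limits, are given below. Jdp2, a repressor of AP-1, had 17 and 21 UMIs at 30 °C and 1 and 1 at 4 °C (edgeR adjusted p = 0.0014). It was called by DESeq2 (adjusted p = 0.00261) and not by limma-voom (0.0676). Over each temperature the ratio of its rates was 38.2 with a 95% counting interval of 9.87 to 327. That interval leaves out the spread between cells and between pools. Npr1, a natriuretic peptide receptor, was at 46.2 and 49 against 0 and 5.81 CPM, and Slc27a3, a fatty acid transport protein, at 111 and 61.3 against 3.79 and 14.5. In each the temperatures stood apart, as the rule for naming genes asked. Npr1 was not called by DESeq2 (adjusted p = 0.62), and its log2 fold change of -4.27 ran from -2.97 without 4 °C replicate 1 to -7.95 without 4 °C replicate 2. That of Slc27a3, -3.46, ran from -2.59 to -4.53 without the same libraries. Car2, carbonic anhydrase 2, had 37, 6, 8 and 0 UMIs, of which a single member of 30 °C replicate 1 held 23, and neither DESeq2 nor limma-voom called it (adjusted p = 0.999 and 0.208). Its log2 fold change of -3.38 was -7.62 without 4 °C replicate 1 and -2.65 without 4 °C replicate 2. Gm42031, Nusap1, Sorl1, Rin3 and Hist1h1c fell by 2.61, 2.40, 1.86, 1.83 and 1.46 on the log2 scale. Nusap1, a spindle protein, did not pass without 30 °C replicate 1 or without 4 °C replicate 2, and was at -3.39 on the log2 scale without 4 °C replicate 1. Sorl1 did not pass without either replicate 1, and Hist1h1c did not without 30 °C replicate 1, nor Gm42031 without 30 °C replicate 2. DESeq2 called none of these 5 and gave Nusap1 no adjusted p. The log2 fold change of Hist1h1c was -0.97 without 30 °C replicate 1. Khdc1a fell by 1.54, but 36 of its 62 UMIs in 30 °C replicate 1 came from a single member, and its log2 fold change was -0.89 without 30 °C replicate 1, -0.71 with the cell richest in each gene taken out of each library, a setting added after the data were seen, and 0.29 with the same number of members drawn from each library.

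Targets of the glucocorticoid receptor, which corticosterone switches on in immune cells, held the most falls. Of 16 tested, 4 fell (against 0.476% of all tested genes) and 1 rose, with a median log2 fold change of -0.49. Tsc22d3 (chrX:140539528-140600659, minus strand), which encodes GILZ, an inhibitor of inflammatory signalling, was at 261 and 303 CPM at 30 °C and at 93.7 and 66.8 at 4 °C (-1.81 ± 0.21, edgeR adjusted p = 0.000483). Ddit4 (chr10:59949669-59951834, minus strand), which encodes REDD1, a brake on mTORC1, was at 81.3 and 70.4 against 7.57 and 8.72 CPM (-3.26 ± 0.36, adjusted p = 0.000451). It was detected in 23 and 12 members at 30 °C and in 7 and 5 at 4 °C. Zfp36l2, an mRNA decay factor, was at 62.8 and 79.6 against 27.4 and 26.2 CPM (-1.40), and Sult1a1, a sulfotransferase, had 9, 7, 1 and 0 UMIs, with a log2 fold change of -4.65 that was -6.30 without 4 °C replicate 1, and did not pass without either cold library (adjusted p = 0.462 and 0.608) or by limma-voom (0.0723).

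The single rise of that list was Cdkn1a, which encodes the cell cycle inhibitor p21 and has many other inputs, at 111 and 153 CPM at 30 °C and at 426 and 360 at 4 °C (1.58 ± 0.19, adjusted p = 0.00065). Fkbp5, a chaperone of the receptor and a classic target, was at 33.3 and 33.7 against 11.4 and 13.1 CPM and did not pass (-1.49, adjusted p = 0.107). Of the 4 falls, between 2 and 3 stayed past the threshold when any 1 library was left out, 2 of them without 4 °C replicate 1, and DESeq2 called 2. Tsc22d3 and Ddit4 passed under all 20 alternatives run. Of 13 heat shock and cold-inducible genes, with a median of 0.13, 1 passed. This was Cirbp, an RNA-binding protein named for its induction by cold in cultured cells, which fell from 307 and 285 CPM to 119 and 138 (-1.24 ± 0.19, adjusted p = 0.00204). Its relative Rbm3 was at 939 and 992 against 740 and 716 CPM (-0.43, adjusted p = 0.134). Cytip, which loosens the integrin contacts of DCs with T cells, fell from 602 and 711 to 244 and 244 CPM (-1.45 ± 0.15, adjusted p = 0.000451).

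Several technical measures moved with temperature in the members. Median UMIs per member were 12869 and 10156 at 30 °C and 13571.5 and 14193 at 4 °C, and median mitochondrial shares were 2.88% and 3.29% against 2.48% and 2.35%. The part of the mitochondrial share in the results was not tested. After thinning of each member to 6628 UMIs, which left out between 4 and 6 members per library, Il1b, Serpinb1a, Hmgcs1, Ddit4, Tsc22d3, Npr1 and Hist1h1c passed. The calls of Pvr, Nfkbiz, Tle3 and Prkx were lost there (adjusted p = 0.166, 0.166, 0.173 and 0.181), with log2 fold changes of 2.53, 1.78, 1.78 and 2.00 against 2.37, 2.04, 2.09 and 2.45 before thinning. The calls of Slc27a3, Rin3 and Khdc1a were lost as well, with log2 fold changes of -2.80, -2.16 and -1.65 (0.0509, 0.0509 and 0.0841). Requiring 6 more genes of B cells, T cells and macrophages at 0 left 25, 17, 56 and 27 members and 29 calls, 27 of them among the 82. Il1b, Serpinb1a, Hmgcs1, Ddit4 and Tsc22d3 passed there, while Ptpn21, Pvr, Prkx, Tle3, Rin3 and Hist1h1c did not. Their log2 fold changes in these fewer members were 2.42, 2.17, 3.07, 2.13, -1.64 and -2.20.

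Members differed widely among themselves in MHC class II. The summed level of H2-Aa, H2-Ab1, H2-Eb1 and Cd74 ran from 4.01 to 899 per 10000 UMIs, with a median of 81.5 and quartiles of 23.4 and 273. B cells had a median of 219 and quartiles of 160 and 278, and macrophages a median of 460. Library medians were 177 and 49.4 at 30 °C and 81.1 and 93.9 at 4 °C. The 2 warm libraries thus lay on either side of both cold ones. As a description over 43, 29, 78 and 49 cells that share a library, the rank correlation with Gpr183, an oxysterol receptor that positions DCs, was 0.53, 0.45, 0.32 and 0.47. With Zmynd15, a gene of the rule, it was -0.39, -0.37, -0.12 and -0.26. With Apol7c and Ccl22, also of the rule, the sign differed between libraries. The values were 0.02, 0.06, -0.17 and -0.46 for Apol7c and -0.16, -0.21, 0.08 and -0.26 for Ccl22. With depth the correlation was 0.004, 0.16, 0.24 and 0.09.

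**Figure D4:**
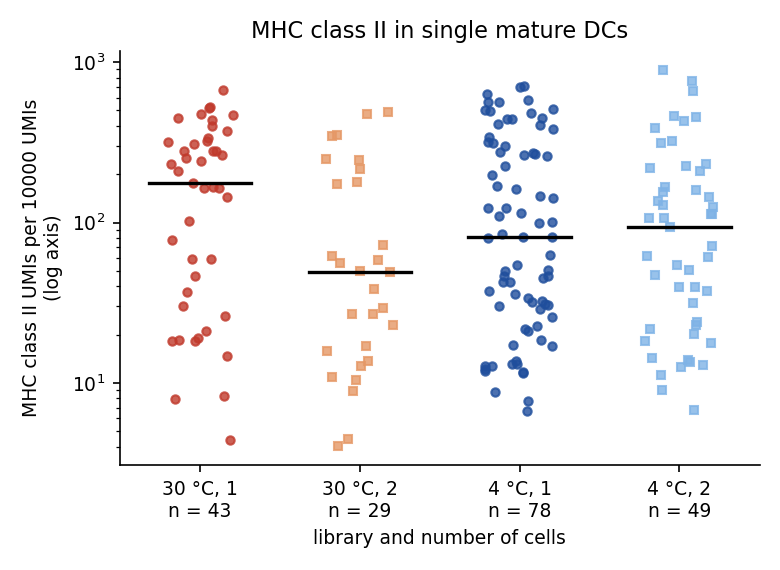
Summed UMIs of H2-Aa, H2-Ab1, H2-Eb1 and Cd74 per 10000 UMIs (log axis) in each mature DC, by library, with the library median as a bar. Cells of every library range over more than an order of magnitude, and the medians run from 49.4 to 177.

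Detection of cytokine genes varied. Il15, which sustains memory T cells and NK cells, had a UMI in 131 members, Ebi3, a subunit of interleukin-27, in 54 and Il18 in 46. These were 65.8%, 27.1% and 23.1% of members, against 18%, 43.3% and 16.8% of macrophages. Ebi3 was also detected in 19.7% of B cells and 13.5% of T cells. Il12b, a subunit of interleukin-12 and interleukin-23, was detected in 32 members and Aldh1a2, which makes retinoic acid, in 34, with 4 holding both. Il12b was detected in 0.134% of macrophages. Ccl17, another ligand of CCR4, was detected in 80 members, of which 75 also held Ccl22, a gene of the rule that 160 of the 199 members held. Ccl17 was at 153 and 113 CPM at 30 °C and at 136 and 61 at 4 °C, overlapping (-0.45 ± 0.30, adjusted p = 0.589).

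The last question was which of these changes differed from those of other ChAT-eGFP+ cells in the same libraries. The difference of the temperature effect was tested with library as a factor. It passed for 241 of 8921 genes against macrophages (2.7%), 104 of 12092 against B cells (0.86%) and 117 of 12062 against T cells (0.97%). With library left out of the model these counts were 161, 2 and 57, without 30 °C replicate 1 they were 118, 54 and 66, without 4 °C replicate 1 they were 106, 31 and 52, and without 4 °C replicate 2 they were 186, 48 and 58. Members summed to 2612309 UMIs, macrophages to 6706986, B cells to 91844885 and T cells to 56344094. The macrophages, 132 and 138 cells at 30 °C and 353 and 123 at 4 °C, were not divided into subsets. In the paper, the predicted resident macrophage cluster M-1 came only from thermoneutral mice. In every comparison with macrophages, a change in their mix and a change within their cells therefore cannot be told apart.

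Hmgcs1 rose more in mature DCs than in B cells (difference 1.6 ± 0.39 on the log2 scale, edgeR adjusted p = 0.0077) and T cells (1.98 ± 0.38, adjusted p = 0.000107). Against macrophages the difference was 1.40 ± 0.47 and did not pass (adjusted p = 0.0883). Within those classes its log2 fold change was 1.03 in macrophages, 0.89 in B cells and 0.45 in T cells. Idi1 passed within every class, at 2.09 in macrophages, 1.34 in B cells and 0.59 in T cells. It rose more in mature DCs than in T cells (1.43 ± 0.33, adjusted p = 0.00425), while the differences from macrophages, -0.06 ± 0.40, and from B cells, 0.79 ± 0.34, did not pass.

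Cdkn1a went in opposite directions in mature DCs and macrophages. Macrophages held 395 and 349 CPM at 30 °C and 152 and 114 at 4 °C, a fall (log2 fold change -1.49), where mature DCs rose (difference 3.11 ± 0.26, adjusted p = 5.25e-26). Dusp2 did not pass within any of the 3 classes, and its differences from mature DCs, 1.6, 1.73 and 1.38, all passed. Nfkbiz rose more in mature DCs than in macrophages, B cells and T cells, by 1.36, 2.09 and 1.49.

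Several falls passed in the other classes too. Tsc22d3 fell within macrophages (-2.63), B cells (-1.70) and T cells (-1.54), and only the difference from macrophages passed, as a smaller fall in mature DCs (0.83 ± 0.26, adjusted p = 0.0499). Ddit4 was at 389 and 365 CPM in macrophages at 30 °C and at 2.68 and 0 at 4 °C, a deeper fall than in mature DCs (difference 4.36 ± 0.70, adjusted p = 3.16e-07), though with so few UMIs left at 4 °C the fitted difference depends on the prior count. Cirbp fell in all 4 classes, and none of its differences passed (adjusted p = 0.686, 1 and 0.99). Cytip fell more than in B cells and T cells, by 1.13 and 1.19, and less than in macrophages, where it went from 266 and 319 to 23.4 and 28.2 CPM. Zfp36l2 fell in B cells and T cells and stood at 899 and 952 against 1042 and 1013 CPM in macrophages, a difference of -1.52 ± 0.34 (adjusted p = 0.000868).

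**Figure D5:**
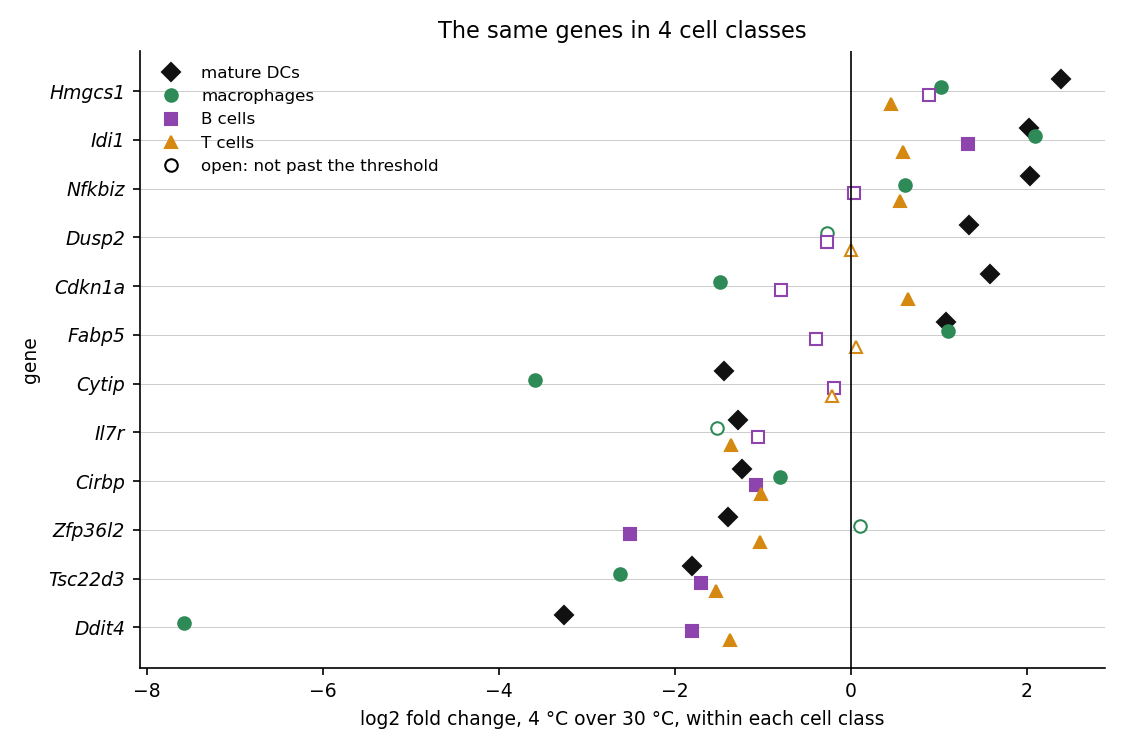
Log2 fold change at 4 °C over 30 °C (horizontal axis) of 12 genes (rows) within mature DCs, macrophages, B cells and T cells, filled where the adjusted p within that class is under 0.05. Idi1, Tsc22d3, Ddit4 and Cirbp are filled in all 4 classes, while Dusp2 is filled in mature DCs only and Cdkn1a is filled to the left of 0 in macrophages and to the right in mature DCs and T cells.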

How the data were processed

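Single-cell 3′ libraries of sorted ChAT-eGFP+ cells were processed by the authors with Cell Ranger, given as 3.0.0 in the matrix headers and as 3.1.0 in the submitters' processing notes, on mm10 (GRCm38). The deposited values are raw UMI counts. The quality limits came from the methods of the study: between 200 and 5000 genes and a mitochondrial share under 7.5%, here exclusive. Letting in the limits themselves kept the same 21249 cells, which is close to the number the study states but not equal to it. Members were found by the rule on 9 genes, and their counts were summed per library. The members, the gene lists and the classes were chosen with earlier results of these data known.

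Sums were tested with edgeR 4.0.16 in R 4.3.3 (TMM, filterByExpr, quasi-likelihood, Benjamini-Hochberg over all tested genes, threshold 0.05). Every adjusted p-value is edgeR's unless DESeq2 or limma-voom is named beside it, and interactions carry library as a factor. DESeq2 1.42.0 and limma 3.58.1 were alternatives. The test steps were tested on simulated data. Macrophages held at least 2 UMIs of C1qa, B cells at least 2 of Cd79a and T cells at least 1 each of Cd3e and Cd3d, all with Fscn1 at 0 and the others' genes at 0. Shares carry 95% Clopper-Pearson intervals, and a count of 0 allows up to 3 counts. Doublets were scored by Scrublet in scanpy 1.11.5 and left in. Named genes were the 12 largest rises and the 12 largest falls past the threshold with at least 20 UMIs in all and temperatures that did not overlap, plus members of the lists, and for the interactions the 5 largest differences each way. Genes named beyond these were chosen after their values were seen: Fdps, H2-M2, Cytip and, in the closing section, Aire. Gene positions are from GENCODE M21. Some called genes are not reported here by name, though counts and medians include them. Aldoa and Ccl19, symbols that 2 identifiers share, were not matched. The authors stated a Wilcoxon test over cells, which was not used because cells of a library are not replicates.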

Additional observations from a re-analysis of the deposited data

Results flagged for a closer look

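The genes below are those with the largest differences in the temperature effect between mature DCs and another cell class, each past the edgeR threshold. Differences are on the log2 scale, mature DCs minus the other class. Against macrophages the largest was Ccl17, at 8.12. Macrophages held 48.8 and 26 CPM of Ccl17 at 30 °C and 0 and 0 at 4 °C, while mature DCs held 153 and 113 against 136 and 61. Strip2 (4.56) was at 188 and 193 against 139 and 126 CPM in mature DCs and at 30.5 and 26 against 0.335 and 1.82 in macrophages. Jaml (4.37), an adhesion molecule, was at 240 and 233 against 4.01 and 6.37 CPM in macrophages. Nr1d2 (7.86) and Dscam (5.27) stood on the same side. In the other direction stood Mucl1 (-7.11), Npr1 (-3.85), Fam214a (-3.35), Pkib (-3.2) and Fry (-3.15). Mucl1 rested on 26, 0, 2 and 3 UMIs in mature DCs, and Fry on 21, 0, 4 and 1.

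Against B cells the differences were Nr1d2 (10.6), Ackr1 (8.65), Fabp4 (3.73), Ptpn21 (3.29) and Serpinb1a (2.94), and in the other direction Jdp2 (-4.78), Car2 (-3.77), Fry (-3.3), Slc27a3 (-3.26) and Nusap1 (-2.5). Against T cells they were Nr1d2 (9.93), Adm (4.68), Serpinb1a (4.6), Fabp4 (4.33) and Slc6a13 (3.76), and in the other direction Jdp2 (-5.48), Car2 (-4.88), S100a3 (-3.57), Fry (-2.91) and Ext1 (-2.38). Serpinb1a was at 66.7 and 83.2 against 33.3 and 14.2 CPM in T cells, opposite to its rise in mature DCs. Jdp2 was at 14.3 and 17 against 14.8 and 24.9 CPM in T cells. Slc6a13 rested on 4, 2, 30 and 3 UMIs in mature DCs. Fabp4 did not pass within mature DCs (edgeR adjusted p = 0.285). In T cells Fabp4 was at 45.6 and 5.88 against 4.35 and 3.33 CPM. Nr1d2, a clock repressor, had 0, 0, 20 and 3 UMIs in mature DCs. Its rate at 4 °C was 3.81-fold that of a limit of 3 counts over the 30 °C libraries. That ratio leaves out the counting error of the 4 °C libraries. The 95% counting interval of the ratio of rates began lower, at 2.86. It leaves out the spread between cells and between pools. Both values rest mostly on the 20 UMIs of 4 °C replicate 1. The fitted differences of Nr1d2 depend on the prior count. So do those of Ccl17, Mucl1, Ackr1, which rested on 1, 0, 14 and 5 UMIs in mature DCs, and Dscam, which was at 6.1, 0, 0 and 0 CPM in macrophages. The macrophages were taken as a single class, so a change in their mix and a change within their cells cannot be told apart. Of the 146 S100a3 UMIs of 30 °C replicate 1, a single member held 142. Its log2 fold change in mature DCs was -0.01 without that library (adjusted p = 0.999), and neither DESeq2 (0.999) nor limma-voom (0.284) called it. With 2 libraries per temperature no library could be tested as an outlier.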

How the results depend on the processing

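The 82 genes past the threshold became 29 with 6 further genes at 0, 38 with the same number of members per library, 27 with thinned members, 215 with no filter on low counts, 33 by DESeq2 and 203 with the replicate block, and ran from 81 to 179 as 1 library was left out. The replicate numbers do not pair the libraries (correlation of deviations 0.004), so the block result stands here only. Other settings gave between 77 and 115. A count close to 82 does not mean that the same genes were called. Many of the 82 were lost without 30 °C replicate 1, and likewise without 4 °C replicate 1, while other genes were called in their place. The share difference kept its sign in every setting, from 0.233 to 0.781 points with 1 library left out. Of 457 values of the 24 named genes under alternatives, 393 kept direction and call, 63 lost the call and 1, Khdc1a with the same number of members, changed sign, to 0.29. Il1b, Serpinb1a, Hmgcs1, Ddit4 and Tsc22d3 kept the call throughout. Interaction counts without library in the model (no replicate block) were 2 for B cells and 57 for T cells, and 161 for macrophages. With 1 library left out they ran from 106 to 203 for macrophages, 31 to 111 for B cells and 52 to 102 for T cells. The causes of these shifts were not tested. With 29 to 78 members per library, genes of a few UMIs rest on few cells, and a gene that did not pass is not shown to be unchanged.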

Other observations

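Aire, the transcriptional regulator known for displaying tissue antigens in the thymus, was found in 32 members, chosen here after its values were seen. It had 50 and 1 UMIs at 30 °C and 54 and 15 at 4 °C, in 11 and 1 and in 15 and 5 members. The temperatures overlapped (log2 fold change -0.57 ± 0.59, edgeR adjusted p = 0.758). Within libraries its rank correlation with the MHC class II level was 0.40, 0.32, 0.42 and 0.34 over 43, 29, 78 and 49 cells, given as a description with no test.

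Receptors of the homing list gave 0 calls among 4 tested outside the rule. Gpr183 was at 227 and 129 CPM at 30 °C and at 263 and 182 at 4 °C, and Ptger4, a prostaglandin E2 receptor of migrating DCs, at 142 and 162 against 284 and 131, both overlapping. Of 3 tested genes of proliferation 0 passed, with a median log2 fold change of -0.57. Of 11 tested genes of glycolysis and hypoxia 0 passed, with a median of -0.06. Of 14 tested genes of FOXO activity and mTOR restraint, Ddit4 fell and 0 rose, with a median of -0.03.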
